A study of Mus musculus with 8 samples.

Results

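Short interspersed elements (SINEs) are short retrotransposons that carry no protein-coding gene and depend on the machinery of LINEs to copy themselves. The deposited repeat table lists 1554 repeat names for mouse embryos at the 2-cell stage, and all 38 names of its class SINE are described here. They were grouped by name into B1 and PB1 (15 names), B2 (3), B3 (2), B4 and ID (8) and MIR and others (10). The polyadenylated RNA came from 8 pools of C57BL/6 embryos from timed matings, each pool holding 12 to 18 embryos. Of these pools, 4 were labelled Dux KO and 4 WT. Dux is a transcription factor that switches on genes and retroviral repeats at the first activation of the embryo's own genome. The labels do not say how the Dux allele was made, nor whether pools came from separate matings, so p-values measure the spread between pools, which may in part be technical. The authors gave repeat levels as FPM, read as fragments scaled to the size of each library. FPM is not divided by element length or by the number of genomic copies, so a level does not rank families by output per copy.

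The families differ in origin. B1 elements derive from 7SL RNA, the RNA of the signal recognition particle, and PB1 names are their older relatives. B2, B3 and ID elements derive from transfer RNAs, B4 joins an ID-like part to a B1-like part, and MIR is a tRNA-derived family shared by mammals. A free-standing SINE is transcribed by RNA polymerase III from an internal promoter made of an A box and a B box. Many more copies lie inside introns and 3′ ends of genes, where they are read as part of RNA polymerase II transcripts, and a total per name does not separate these sources. B1 and B2 transcripts are known to be abundant in the early mouse embryo. Subfamilies of a family are also close to one another in sequence, and how reads with several positions were treated is not given in the sources used here, so neighbouring subfamily names can share reads.

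The internal promoter is shown on Bc1, the neuronal RNA gene from which ID elements of rodents are derived, because the deposited tables hold no sequence of the SINE names themselves. Bc1 spans chr7:144914470-144914637 on the + strand of GRCm38, 168 bases in GENCODE M21, and its first 100 bases (chr7:144914470-144914569) are given 5′ to 3′ with letters of the A box (TAGCNNA) and the B box (GGTTCG) in capitals.
Bc1: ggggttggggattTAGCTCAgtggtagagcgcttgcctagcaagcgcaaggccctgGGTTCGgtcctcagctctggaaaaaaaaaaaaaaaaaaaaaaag
The A box letters cover bases 14 to 20 and the B box letters bases 57 to 62, followed further on by an A-rich stretch. Both strands were searched, each motif matched 1 time on the sense strand and 0 times on the antisense strand, and the matches did not overlap. On either strand, the A box letters occurred in the first 100 bases of 8.48% of 139316 GENCODE transcripts of at least that length, and the B box letters in 1.89%. These matches describe letters only.

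Each pool gave 12343369 to 14548526 reads over genes and 2239838 to 3008546 over repeat names, of which 799891 to 1099547 fell on SINE names. Reads were recovered from the steps of the deposited values, as described with the processing. SINE names took 37.3% ± 0.882 of repeat reads in WT and 35.0% ± 2.33 in Dux KO (SD, n = 4 each), and the groups overlapped. Dux KO replicate 2 had the lowest share, 31.6%. Pools of a group differed by 14.4 to 116 times the variance of read sampling over all repeat names and by 24.9 to 294 times over SINE names (chi-square over its degrees of freedom), more than read sampling gives. All 10 embryo and oocyte markers were listed, at summed levels of 459 to 557 FPKM in the WT pools and 516 to 762 FPKM in the Dux KO pools. Of the markers of other cells, 2 of 8 for cumulus and granulosa (1.19 to 6.38 FPKM in WT, 2.83 to 4.83 in Dux KO) and 2 of 5 for oviduct (Epcam and Ovgp1) were listed, and 0 of 3 for blood and 0 of 4 for sperm. The sum of Epcam and Ovgp1, 127 to 147 FPKM in WT and 87.2 to 124.5 in Dux KO, was lower in every Dux KO pool. These 2 genes were not taken apart, the other oviduct markers were not listed, and the part of this sum in the results was not tested.

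On the deposited FPM scale, names of the B2 and B1 families fell in Dux KO pools and no B4, ID or ancient name was called. As a share of all repeat reads, B2_Mm2 alone was called lower, against a background of 2.92% of repeat names. On that scale 3 names (B4, ID2 and AmnSINE1) were called higher, against a background of 24.6%. By limma's moderated test on log2(FPM + 1), with Benjamini-Hochberg adjustment over 1267 repeat names, 13 of 38 SINE names fell and 0 rose. All 38 passed the filter of a mean of at least 1 FPM. The background was 7.58% of repeat names lower and 4.66% higher at the same threshold, an adjusted p under 0.05. The median log2 fold change was -0.26 over SINE names and -0.02 over all repeat names tested, and 33 of 38 SINE names had a negative value, of which 20 turned positive as a share of repeat reads. Every Dux KO pool was below every WT pool for 23 of 38 SINE names, against a background of 10.8% of repeat names. No SINE name had every Dux KO pool above every WT pool, against a background of 7.58%. At an unadjusted p under 0.05 no SINE name was higher either, and on recovered reads edgeR called 0 higher (background 6.63%), as did DESeq2 (8.85%). In bulk pools, fewer cells that carry these transcripts and less of them per cell cannot be told apart.

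**Figure D1:**
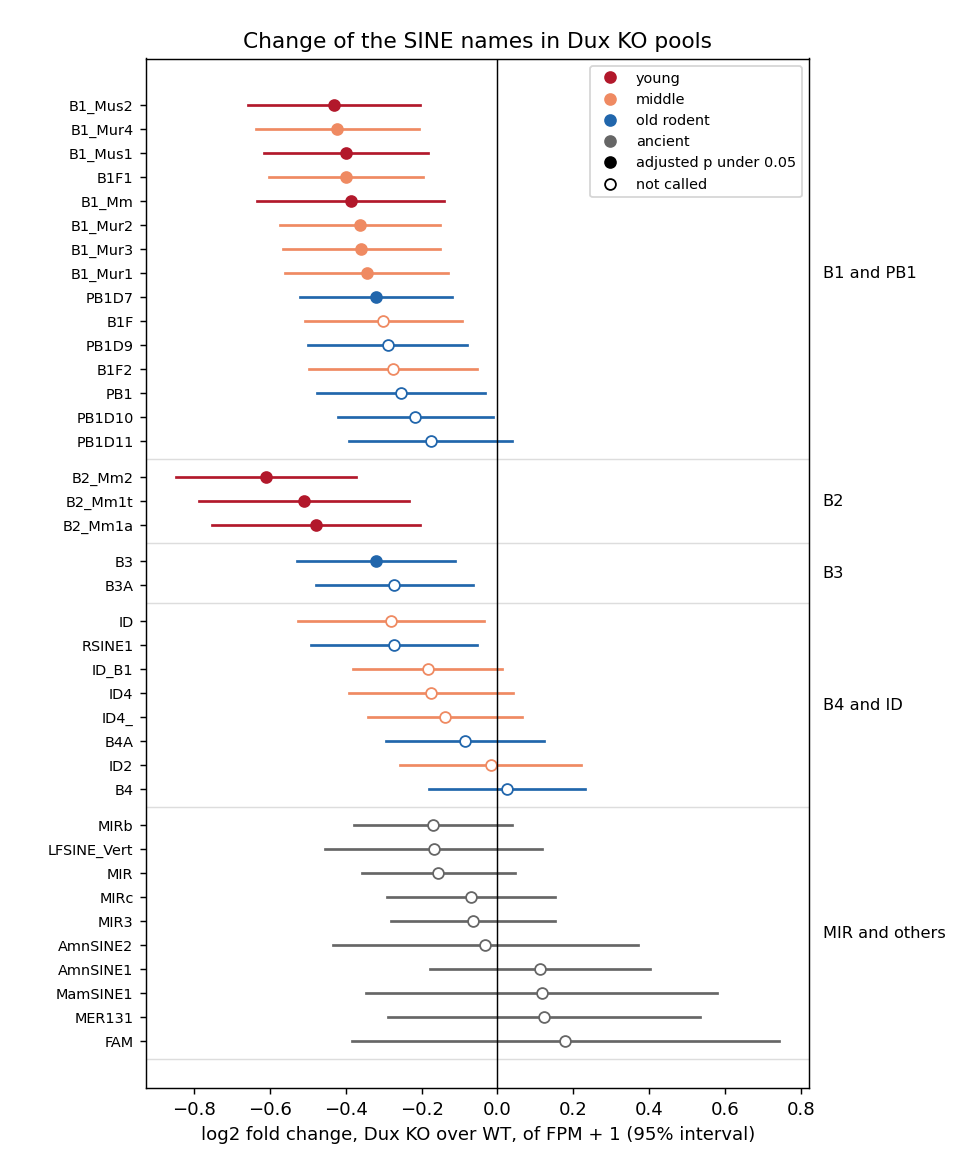
Each point is the log2 fold change of 1 SINE name, Dux KO over WT, of FPM + 1 with its 95% interval, grouped by family and coloured by age. Filled points passed the adjusted threshold: all 3 B2 names, 9 B1 and PB1 names and B3.

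The count of SINE names called depended on the scale and on single pools. It was 1, B2_Mm2, when FPM was rescaled to a share of all repeat reads (background 2.92% lower) or to the gene reads of the same pool (3%), and 1 with limma's test without a variance trend and robust moderation (3.16%). Leaving out single WT pools gave 5 for replicate 1 (background 5.13%), 6 for replicate 2 (5.21%) and 2 for replicate 4 (5.05%). Leaving out single Dux KO pools gave 8 for replicate 1 (background 6%), 1 for replicate 2 (3.87%) and 7 for replicate 3 (5.52%). Leaving out the pair 1 and 2 gave 1 (2.13%), and the pair 3 and 4 gave 2 (4.81%).

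B2 names were the most abundant SINEs and fell most. Summed over its 3 names, B2 took 221400 ± 25395 FPM in the WT pools and 154449 ± 23783 FPM in the Dux KO pools (SD, n = 4 each), and made up 54.0% ± 2.73 of SINE reads in WT and 49.7% ± 3.56 in Dux KO. All 3 names were called lower (background 7.58% of repeat names), and in all 3 every Dux KO pool lay under every WT pool (10.8%).

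B2_Mm2 stood at 71836, 63402, 57505 and 63778 FPM in WT replicates 1 to 4 and at 48437, 36669, 44433 and 39003 FPM in Dux KO replicates 1 to 4. The lowest WT pool, replicate 3, was above the highest Dux KO pool, replicate 1. The mean went from 64130 ± 5886 to 42136 ± 5313 FPM, a log2 fold change of -0.61 (SE 0.11, 95% interval -0.85 to -0.37, adjusted p = 0.00360 by limma). B2_Mm2 was the only SINE name called in all 22 alternatives tried, with log2 fold changes from -0.68 to -0.30 and adjusted p from 1.2e-05 to 0.0486.

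B2_Mm1t, a second young B2 subfamily, stood at 76440, 61292, 57470 and 68708 FPM in the WT pools and 54084, 40207, 52476 and 39388 FPM in the Dux KO pools. Its log2 fold change was -0.51 (SE 0.13, adjusted p = 0.0210). B2_Mm1a, the most abundant SINE name of the table, stood at 106586, 82415, 82227 and 93943 FPM in the WT pools and 74855, 55773, 75625 and 56848 FPM in the Dux KO pools, a log2 fold change of -0.48 (SE 0.13, adjusted p = 0.0278). Within Dux KO, replicates 1 and 3 were the higher pools for all 3 B2 names and replicates 2 and 4 the lower ones. Both Mm1 names kept a negative value in all 22 alternatives and were called in 13. Both lost the call when WT replicate 1 or 4 or Dux KO replicate 2 or 4 was left out, with adjusted p from 0.0519 to 0.0774.

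**Figure D2:**
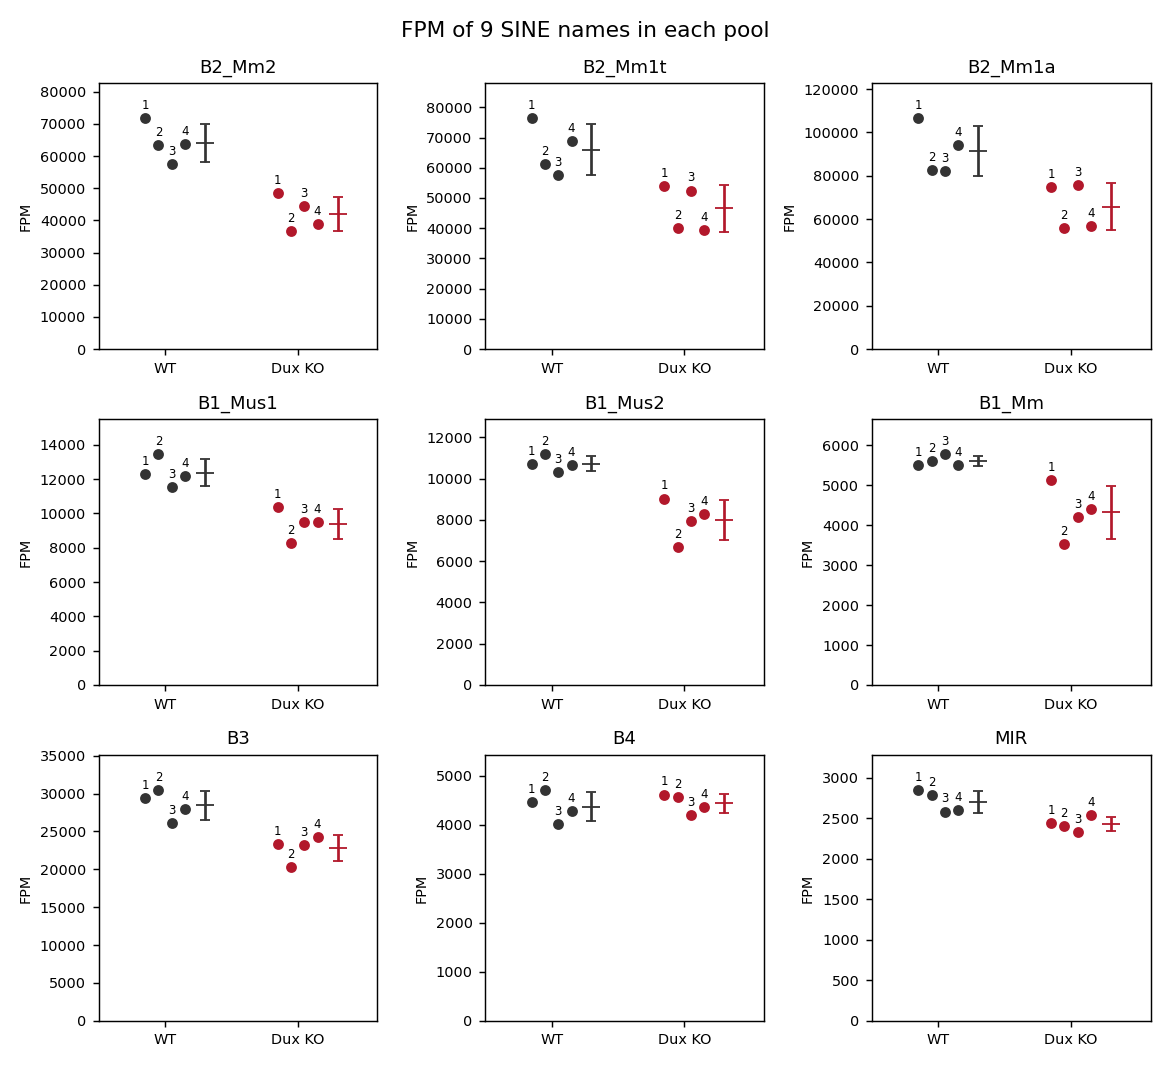
Points give the FPM of 9 SINE names in each pool, numbered by replicate, with the mean and SD of each group beside them on a linear axis from 0. The B2, B1 and B3 names shown do not overlap between groups, B4 overlaps, and MIR differs by a narrow gap.

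B1 and PB1 names made up 21.9% ± 1.40 of SINE reads in WT and 22.8% ± 1.57 in Dux KO, so their share within SINEs overlapped between groups. On the FPM scale the 15 names summed to 89156 ± 3681 in WT and 70291 ± 5629 in Dux KO. Of the 15 names, 9 were called lower (background 7.58% of repeat names) and 0 higher (4.66%). All 15 had a negative value (6 turned positive as a share of repeat reads), and the median log2 fold change was -0.34. For 14 of 15, all but PB1D11, every Dux KO pool lay under every WT pool (background 10.8%). These names can share reads, so they are not 15 separate observations. Dux KO replicate 2 was the lowest Dux KO pool for all 15 names, and Dux KO replicate 4 was the highest for 10.

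The young B1 names, the B1_Mur names and B1F1 had the most negative values of the group. B1F (-0.30) and B1F2 (-0.28), also of middle age, were less negative than the older PB1D7 (-0.32). B1_Mus1 stood at 12305, 13461, 11555 and 12171 FPM in the WT pools and 10352, 8266, 9481 and 9473 FPM in the Dux KO pools, a log2 fold change of -0.40 (SE 0.10, adjusted p = 0.0210). B1_Mus2 stood at 10701, 11195, 10301 and 10680 FPM in the WT pools and 9037, 6691, 7969 and 8277 FPM in the Dux KO pools, a log2 fold change of -0.43 (SE 0.11, adjusted p = 0.0187), the most negative of the group. For both names the lowest WT pool, replicate 3, was above the highest Dux KO pool, replicate 1. B1_Mm stood at 5505, 5612, 5781 and 5503 FPM in the WT pools and 5140, 3527, 4197 and 4411 FPM in the Dux KO pools, a log2 fold change of -0.39 (SE 0.11, adjusted p = 0.0412). The WT pools of B1_Mm were within a coefficient of variation of 2.34%, and the Dux KO pools spread over 15.4%, with replicate 1 closest to WT. It was called in 7 of 22 alternatives and lost the call without any 1 pool except Dux KO replicate 1. B1_Mus1 lost it without WT replicate 2, WT replicate 4 or Dux KO replicate 2, and B1_Mus2 without WT replicate 4 or Dux KO replicate 2.

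Among the B1 names of middle age, B1_Mur4 stood at 6785, 7376, 6055 and 6555 FPM in the WT pools and 5193, 4519, 5053 and 5189 FPM in the Dux KO pools, a log2 fold change of -0.42 (SE 0.10, adjusted p = 0.0155). B1F1 was the tightest name in WT, at a coefficient of variation of 1.19%, and went from 3375 ± 40.0 to 2564 ± 176 FPM (log2 fold change -0.40, adjusted p = 0.0156). The other 3 Mur names were called at -0.36, -0.36 and -0.34 (B1_Mur2, B1_Mur3 and B1_Mur1), and each lost the call in 11 to 15 of 22 alternatives. B1F (-0.30, adjusted p = 0.0579) and B1F2 (-0.28, adjusted p = 0.0995) were not called.

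The 5 proto-B1 names, older relatives of B1, had log2 fold changes from -0.32 to -0.18. PB1D7 was the only one called, at 3762 ± 237 FPM in the WT pools and 3010 ± 85.5 FPM in the Dux KO pools (log2 fold change -0.32, adjusted p = 0.0407), and it lost the call without any 1 pool except WT replicate 3. PB1D9, PB1, PB1D10 and PB1D11 had values of -0.29, -0.26, -0.22 and -0.18 and were not called. PB1D10, the most abundant of them, stood at 8334, 8867, 7735 and 8327 FPM in the WT pools and 7315, 6701, 6896 and 7734 FPM in the Dux KO pools. Its groups were separated by the narrow gap between WT replicate 3 and Dux KO replicate 4 (adjusted p = 0.156).

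B3 elements are older relatives of B2. The name B3 stood at 29358, 30482, 26053 and 27950 FPM in the WT pools and 23401, 20345, 23194 and 24249 FPM in the Dux KO pools, without overlap, a log2 fold change of -0.32 (SE 0.10, adjusted p = 0.0446). B3A stood at 11737, 12185, 10360 and 11386 FPM in the WT pools and 9711, 8673, 9488 and 9944 FPM in the Dux KO pools, also without overlap, at -0.27, and was not called (adjusted p = 0.0843). In both, every pool of Dux KO was below the lowest WT pool, replicate 3, and the test of B2 against B3 within pools is given with the ratios. The call of B3 was lost in 14 of 22 alternatives, among them each single pool left out except WT replicate 3. As a share of repeat reads the summed B3 level was 3.63% ± 0.151 in WT and 3.65% ± 0.330 in Dux KO.

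The B4 and ID group summed to 49864 ± 3772 FPM in the WT pools and 44232 ± 1490 FPM in the Dux KO pools. None of its 8 names was called in either direction (background 7.58% of repeat names lower and 4.66% higher). The median log2 fold change was -0.16, and 7 of 8 values were negative. In 3 of 8 names (ID, ID_B1 and ID4_) every Dux KO pool lay under every WT pool, against a background of 10.8%. RSINE1, a B4 relative, stood at 15750, 16712, 13343 and 14688 FPM in the WT pools and 12561, 11354, 12663 and 13367 FPM in the Dux KO pools, and Dux KO replicate 4 reached into the WT range (-0.27, adjusted p = 0.0981). ID_B1 stood at 17145, 18358, 15721 and 16734 FPM in the WT pools and 15034, 14299, 14994 and 15433 FPM in the Dux KO pools (-0.18, adjusted p = 0.212). Both names, the most abundant of the group, had negative values that did not pass the threshold and turned positive as a share of repeat reads (0.037 and 0.13).

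B4 was the only name of the B1, B2, B3, B4 and ID groups with a positive value. It stood at 4465, 4710, 4013 and 4271 FPM in the WT pools and 4616, 4572, 4200 and 4361 FPM in the Dux KO pools, with groups that overlapped (log2 fold change 0.03, 95% interval -0.18 to 0.23, adjusted p = 0.903). B4A was at -0.09 and ID2 at -0.02, while ID, ID4 and ID4_ were at -0.28, -0.18 and -0.14. Scaled to a share of all repeat reads, B4 (0.34) and ID2 (0.29) were called higher, where 24.6% of all repeat names were called higher.

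MIR and the other ancient names were low. MIRb stood at 2842, 2915, 2444 and 2727 FPM in the WT pools and 2515, 2387, 2369 and 2419 FPM in the Dux KO pools, with overlap (-0.17, adjusted p = 0.283). MIR stood at 2852, 2791, 2585 and 2599 FPM in the WT pools and 2438, 2405, 2331 and 2542 FPM in the Dux KO pools, without overlap (-0.16, 95% interval -0.36 to 0.05, adjusted p = 0.313). Both intervals reached above 0. MIRc and MIR3 were at -0.07 and -0.06. The group had 0 of 10 names called, 6 negative values, a median of -0.05 and 1 name without overlap, MIR. The background was 7.58% of repeat names lower, 4.66% higher and 10.8% with every Dux KO pool under every WT pool. Both counts were near these shares. LFSINE_Vert (-0.17) and AmnSINE1 (0.11) had means of 178 and 146 FPM over all pools. AmnSINE2 (-0.03), MamSINE1 (0.12), MER131 (0.12) and FAM (0.18), a relic of the 7SL-derived SINEs, lay under 65 FPM in every pool, and FAM rested on as few as 20 recovered reads in a pool.

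On the FPM scale, the medians of the 4 age lists followed the order of age. All 6 young names (B1_Mus1, B1_Mus2, B1_Mm and the 3 B2 names) were called lower, with a median of -0.46. Of 12 middle names 5 were called, with a median of -0.29, and of 10 old rodent names 2, with a median of -0.26. Of 10 ancient names 0 were called, with a median of -0.05. Over all repeat names 7.58% were called lower, and 25 of 103 names other than SINE with a mean of at least 1000 FPM. The 2 of 10 old rodent names were near this last share. Abundance ran alongside age in part. A mean of at least 1000 FPM was reached by all 6 young, 10 of 12 middle, 10 of 10 old rodent and 4 of 10 ancient names. Family ran alongside age as well. The young names were all B1 or B2, the called middle names all B1, and the ancient names all MIR and others. Within B1 the order did not hold throughout, as B1_Mur4 of the middle list (-0.42) was below the young B1_Mus1 (-0.40) and B1_Mm (-0.39). The parts of abundance and family in the order were not tested.

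Ratios of a younger to an older name within the same pool do not depend on the scaling between pools. They set young names directly against old ones, and the pairs with MIR cross families as well as ages. The 6 pairs were compared by an exact permutation test over all 70 splits of the 8 pools, two-sided, for which the smallest p is 0.0286. B2_Mm2 was 25.2, 22.7, 22.2 and 24.5 times MIR in WT and 19.9, 15.2, 19.1 and 15.3 times MIR in Dux KO. The log2 difference was -0.45 (exact permutation p = 0.0286, adjusted p = 0.0429 over the 6 pairs). B2_Mm2 was 2.45, 2.08, 2.21 and 2.28 times B3 in WT and 2.07, 1.80, 1.92 and 1.61 times B3 in Dux KO, a log2 difference of -0.29 with the same p-values. In both pairs the lowest WT pool lay above the highest Dux KO pool, for B2_Mm2 over B3 by a small gap.

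For B1, B1_Mus1 was 4.31, 4.82, 4.47 and 4.68 times MIR in WT and 4.24, 3.44, 4.07 and 3.73 times MIR in Dux KO, a log2 difference of -0.24 (exact permutation p = 0.0286, adjusted p = 0.0429). B1_Mus1 was 1.48, 1.52, 1.49 and 1.46 times PB1D10 in WT and 1.42, 1.23, 1.37 and 1.22 times PB1D10 in Dux KO, a log2 difference of -0.18 with the same p-values. The WT ratios were tight and the Dux KO ratios spread below them. The remaining pairs overlapped. B1_Mm over PB1D10 differed by -0.17 (exact permutation p = 0.171, adjusted p = 0.2), and B2_Mm1a over B3A by -0.21 (p = 0.2, adjusted p = 0.2). With 1 pool left out, all 4 called pairs lost the call without WT replicate 1, 2, 3 or 4 and without Dux KO replicate 2 or 4 (adjusted p from 0.0571 to 0.0857 by the exact permutation test). They kept it without Dux KO replicate 1 (adjusted p = 0.0343), where B1_Mm over PB1D10 was also called, or without Dux KO replicate 3 (adjusted p = 0.0429).

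**Figure D3:**
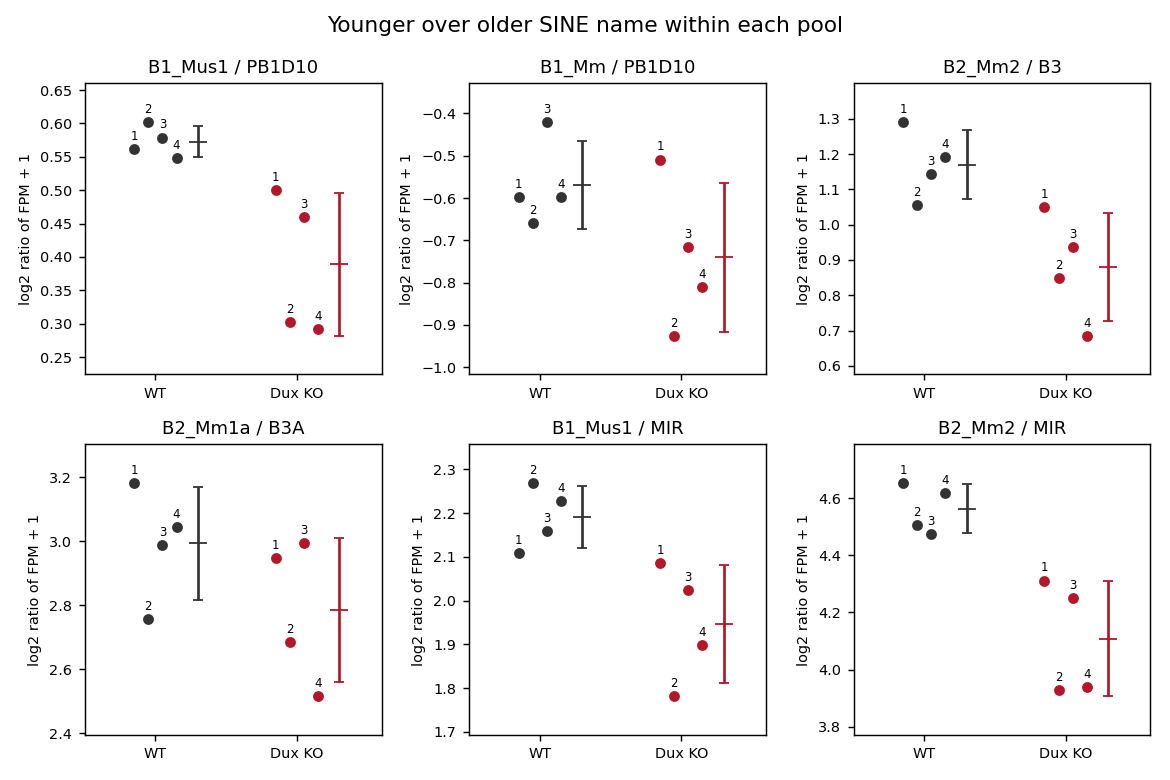
Each panel gives the log2 ratio of FPM + 1 of a younger to an older SINE name in each pool, numbered by replicate, with group mean and SD. In 4 of the 6 panels every Dux KO pool lies under every WT pool.

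How far each group fell on the FPM scale depended on what the pools were scaled to. The deposited FPM summed to 1019090 to 1183116 over all repeat names in WT and to 834571 to 951000 in Dux KO, so they were not scaled to 1 total. Summed B2 was lower by a log2 difference of -0.53 on the FPM scale, -0.37 per gene read and -0.21 as a share of repeat reads. Summed B1 and PB1 was at -0.35, -0.19 and -0.03 on the same scales. B3 was at -0.31, -0.15 and 0.005, turning its sign on the last. B4 and ID was at -0.17, -0.02 and 0.14, and MIR and others at -0.12, 0.03 and 0.19, also with turned signs. These scales move the median of all repeat names by 0.15 (per gene read) and 0.30 (share of repeat reads) and shift all SINE groups alike, so they leave the order of the groups as it is by construction. With TMM or a median of ratios over repeat names alone, all 5 group values moved by less than the within-group SD.

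**Figure D4:**
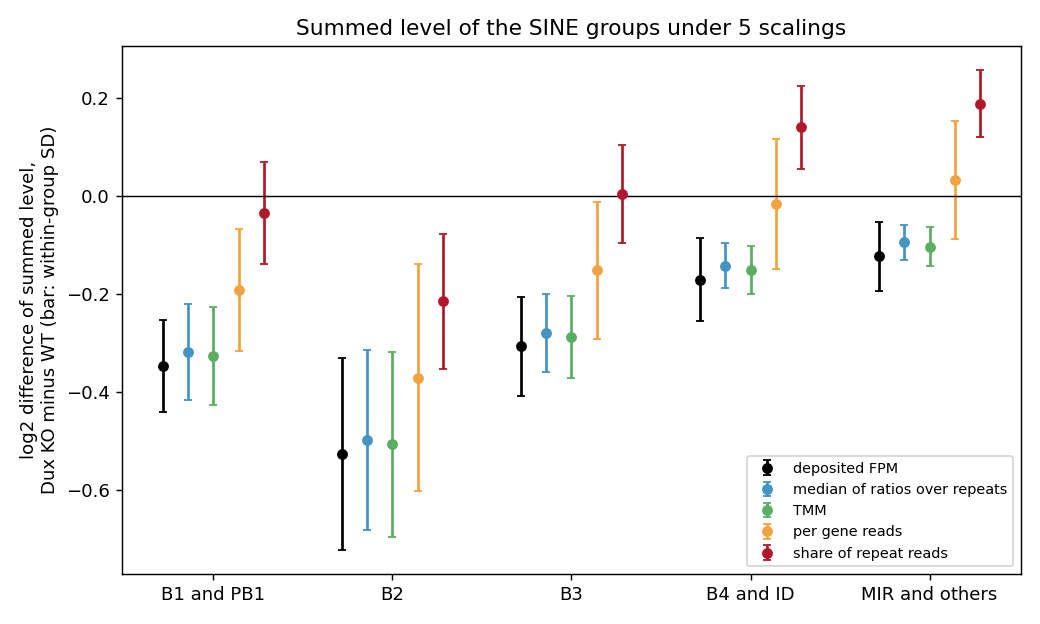
Points give the log2 difference of summed level, Dux KO minus WT, of the 5 SINE groups under 5 scalings between pools, with the within-group SD as bars. B2 is below 0 under each scaling, B3, B4 and ID, and MIR and others lie above 0 as a share of repeat reads, and MIR and others also per gene read.

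Other repeat classes give the background for these values. Of 154 LINE names tested, 4 were called lower and 6 higher, with a median of 0.04. Of 183 DNA transposon names, 6 were lower and 10 higher, with a median of 0.08, and of 614 LTR names, 61 were lower and 35 higher, with a median of -0.04. Names with a mean of at least 1000 FPM were also set side by side, so that levels were more alike. There, 13 of 30 SINE names were lower with a median of -0.28, and 25 of 103 other names were lower and 3 higher with a median of -0.10, among them 0 of 24 LINE names lower and 21 of 56 LTR names lower.

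The RNAs from which SINEs derive are listed under other classes of the table. BC1_Mm, the repeat name of the ID source RNA shown above, was at 930 ± 68.6 FPM in the WT pools and 809 ± 75.0 FPM in the Dux KO pools (-0.20, adjusted p = 0.261). 7SLRNA, the source of B1, was at 102 ± 2.01 and 93.5 ± 7.52 FPM (-0.12, adjusted p = 0.601), and 4.5SRNA, a B1-related RNA of rodents, at 108 ± 12.4 and 86.2 ± 8.11 FPM (-0.32, adjusted p = 0.170). None was called, and the groups of all 3 overlapped. The libraries were made from polyadenylated RNA, so these levels need not reflect copies without a polyA tail.

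Genes for RNA polymerase III, which transcribes free-standing SINEs, fell in Dux KO in 17 of 30 cases. Of the 30 genes of this list tested, among 31 listed, 17 were called lower and 1 higher by limma on log2(FPKM + 1), with a median log2 fold change of -0.56, where 18.1% of 12434 genes were lower and 15.5% higher, with a median of -0.02. Most genes of the list had a mean of at least 5 FPKM, and among all genes at that level 29.1% of 6468 were lower and 16% higher. Several of these genes also serve other polymerases. Tbp, the TATA-binding protein shared by all nuclear RNA polymerases, was at 28.4, 30.1, 37.6 and 31.6 FPKM in the WT pools and 13.8, 13.4, 17.5 and 11.4 FPKM in the Dux KO pools (-1.14, SE 0.16, adjusted p = 0.00212). Polr1c, a subunit shared by RNA polymerases I and III, was at 237 ± 32.3 and 109 ± 25.8 FPKM (-1.13, adjusted p = 0.00295). Both were called in each of 15 alternatives. Of the TFIIIC genes, which bind the B box, Gtf3c1, Gtf3c3, Gtf3c5 and Gtf3c6 fell, and Gtf3c2 and Gtf3c4 did not pass the threshold.

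The single gene called higher was Maf1, a repressor of RNA polymerase III. It was at 9.14, 7.46, 21.2 and 10.4 FPKM in the WT pools and 25.3, 19.2, 19.3 and 18.4 FPKM in the Dux KO pools (0.81, adjusted p = 0.0349). WT replicate 3 lay inside the Dux KO range, so the groups overlapped, and the call was lost without WT replicate 1, 2 or 4 or Dux KO replicate 1, 2 or 3. The count of 17 lower genes became 10 on leaving out WT replicate 3 (14.3% of all genes lower), 10 for WT replicate 4 (10.8%), 11 for Dux KO replicate 1 (11.4%) and 3 for the pair of Dux KO replicates 1 and 2 (3.56%).

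A list of genes for proteins that bind SINE RNA or act on chromatin at SINEs was counted in the same way. Of 23 tested among 27 listed, 1 was called lower and 4 higher, with a median of -0.12, beside the 18.1% lower and 15.5% higher over all genes, so the share called higher was near that background. Dhx9, an RNA helicase that acts on paired inverted SINE copies, was at 20.6 ± 5.18 FPKM in the WT pools and 12.5 ± 2.71 FPKM in the Dux KO pools (-0.67, adjusted p = 0.0315). The groups of Dhx9 overlapped, and the call was lost when WT replicate 3 or 4 or Dux KO replicate 1 or 4 was left out. Cbx1, an HP1 protein of heterochromatin, was at 10.4 ± 1.93 and 24.2 ± 5.69 FPKM (1.13, adjusted p = 0.00353). Mbd2, a methyl-CpG binding protein, was at 1.83 ± 0.481 and 4.42 ± 1.11 FPKM (0.93, adjusted p = 0.00608). Suv39h2, a histone H3 lysine methyltransferase, was at 14.9 ± 1.69 and 21.6 ± 2.48 FPKM (0.50, adjusted p = 0.0258), and lost its call when WT replicate 2 or 4 or Dux KO replicate 1 or 2 was left out. Adar, an RNA-editing enzyme that acts on paired SINEs, was the fourth, at 0.39 and a low level. The count of 4 was 2 when WT replicate 2 (13.1% of all genes higher), WT replicate 4 (9.46%) or Dux KO replicate 1 (10.1%) was left out, and at a mean of at least 5 FPKM (16%). Srp9 and Srp14, which bind 7SL RNA and B1 RNA, were not called (-0.27, adjusted p = 0.123, and -0.24, adjusted p = 0.180).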

How the data were processed

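Complementary DNA from polyA RNA of the pools was amplified with a low-input kit and made into Nextera XT libraries, per the labels' protocols. Per the submitters' processing notes, tools were Trimmomatic 0.32, STAR 2.6.1a and SAMtools 1.7, and the build GRCm38 (mm10). The sources used here do not give the read counter or the repeat annotation. The authors deposited repeat values as FPM and gene values as FPKM, each with a mean signal, a log2 fold change and an adjusted p-value of their own. Of 1554 repeat names, 69 were at 0 throughout and 415 had no deposited adjusted p-value. The gene table had 13101 rows, 66 without a symbol, and 0 for Dux, which is not analysed here.

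Values were whole multiples of 1 step in each pool, which gave back whole reads for 100% of values in both tables (tolerance 0.05 reads). The FPM steps followed those of the gene table at a near-constant ratio, so FPM was read as scaled by size factors, which is an inference. Libraries were compared with limma 3.58.1 in R 4.3.3 (variance trend, robust moderation, no covariate, two-sided) on log2(FPM + 1), mean at least 1 FPM, and log2(FPKM + 1), mean at least 0.5 FPKM, with Benjamini-Hochberg adjustment over all names or genes. Fold changes on these scales understate low names. Ratios used exact permutation tests. edgeR 4.0.16 and DESeq2 1.42.0 on recovered reads, other scalings, pseudocounts and filters, and pools left out were alternatives. The fit was also run on simulated reads, drawn independently for each name with a common spread. SINE names moved together across pools here, so that run does not give the error rate of their calls.

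Every SINE name is given. Values per pool are for the 2 most abundant and the 2 most changed called names of each group, the young names and the ratio pairs, and other names are shown for contrast. Of each gene list, up to 3 called genes a direction are named (1 that the rule names is not reported here), and further called genes were named after their values were seen. The ages follow textbook knowledge. Members and lists were chosen with earlier results of these data known.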

Additional observations from a re-analysis of the deposited data

Results flagged for a closer look

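Of 114 groups of 4 pools checked, 3 held a pool whose gap to the next exceeded Dixon's 95% critical value for the gap over the group's range, where chance gives about 1 in 20. B1_Mur3 in Dux KO replicate 2 was at 3888 FPM, with the other Dux KO pools at 4379 to 4415 FPM. AmnSINE1 in Dux KO replicate 3 was at 136 FPM, with the others at 155 to 158 FPM. Maf1 in Dux KO replicate 1 was at 25.3 FPKM, with the others at 18.4 to 19.3 FPKM.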

How the results depend on the processing

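The 13 SINE names called lower became 1 as a share of repeat reads, 1 per gene read, 1 with limma without trend and robust moderation, 1 without Dux KO replicates 1 and 2, 2 without Dux KO replicates 3 and 4 and 1 to 11 with 1 pool left out. Under other pseudocounts, filters, TMM, a median of ratios over repeat names (chosen after seeing the data), edgeR, DESeq2 and the authors' deposited table they were 11 to 17. The background of repeat names lower moved too, from 5.93% with no filter (11 SINE names) to 11.2% in the deposited table (16). It was 10% with DESeq2 (17), and 3.87% to 8.29% with 1 pool left out. SINE names called higher were 3 as a share of repeat reads, where 24.6% of all repeat names were higher. They were 0 under every other alternative, with any 1 pool left out included. There, the share of all repeat names called higher ran from 0.316% (without Dux KO replicates 1 and 2) to 8.85% (DESeq2). It was 1.1% without Dux KO replicate 2. At the lower of these shares, 0 of 38 SINE names is near the background. Every called SINE name kept its sign in all 22 alternatives.

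As a share of repeat reads, values turned positive for the B3 (0.0047), B4 and ID (0.14) and MIR and others (0.19) sums, and summed B1 and PB1 was -0.035 and B2 -0.21. So did B1F (0.011), PB1D9 (0.022), ID (0.029), B1F2 (0.036), RSINE1 (0.037), B3A (0.040), PB1 (0.056), PB1D10 (0.095), ID_B1 (0.13), PB1D11 (0.13), ID4 (0.14), MIRb (0.14), LFSINE_Vert (0.14), MIR (0.16), ID4_ (0.17), B4A (0.23), MIRc (0.24), MIR3 (0.25), AmnSINE2 (0.27) and ID2 (0.29). Per gene read, sums were -0.19 (B1 and PB1), -0.15 (B3), -0.016 (B4 and ID) and 0.032 (MIR and others), and ID4_ (0.017), B4A (0.070), MIRc (0.085), MIR3 (0.090), AmnSINE2 (0.12) and ID2 (0.14) turned positive. ID2 was also positive with TMM (0.0020), the median of ratios over repeat names (0.011), edgeR (0.0025), DESeq2 (0.012) and without Dux KO replicates 3 and 4 (0.016). AmnSINE2 was positive with DESeq2 (0.0062) and without Dux KO replicates 1 and 2 (0.083), where B4 was -0.026. With 1 pool left out, ranges crossing 0 were -0.10 to 0.044 (AmnSINE2), -0.057 to 0.015 (ID2), -0.014 to 0.063 (B4), -0.079 to 0.28 (MamSINE1) and -0.057 to 0.29 (FAM). These are names with values near 0 or few reads. The scaling moves every name together, by construction, and other causes were not tested.

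Sums with 1 pool left out ranged from -0.37 to -0.29 (B1 and PB1), -0.60 to -0.46 (B2), -0.35 to -0.26 (B3), -0.21 to -0.13 (B4 and ID) and -0.16 to -0.095 (MIR and others). Ratio differences ranged from -0.22 to -0.15 (B1_Mus1 to PB1D10), -0.25 to -0.11 (B1_Mm to PB1D10), -0.35 to -0.22 (B2_Mm2 to B3), -0.29 to -0.12 (B2_Mm1a to B3A), -0.29 to -0.19 (B1_Mus1 to MIR) and -0.52 to -0.39 (B2_Mm2 to MIR). Of 32 tests of the 4 called ratios with 1 pool left out, 24 lost the call, all 4 ratios for each of 6 pools, with adjusted p from 0.0571 to 0.0857. In that order, these ratios were -0.20, -0.36, -0.23 and -0.47 without Dux KO replicates 1 and 2 (adjusted p = 0.08 by exact permutation). Without replicates 3 and 4 they were -0.17, -0.22, -0.26 and -0.44 (adjusted p = 0.1 by the same test). Both settings were chosen after seeing the data, and with 2 Dux KO pools left this test cannot bring p under 0.05.

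Replicate numbers did not pair the pools: same-numbered WT and Dux KO pools had correlations of 0.02, 0.13, -0.04 and 0.10 over 1267 repeat names, and not every pool correlated best with its own number. With the replicate block, 12 SINE names were lower (background 8.37% of repeat names) and 0 higher (6.31%). The ratios (-0.18, -0.29, -0.24 and -0.45) had adjusted p = 0.188 by an exact sign-flip test, which 4 pairs cannot bring under 0.05. With the block, the Pol III list had 19 lower and the SINE RNA and chromatin list 2 lower, where 20.8% of all genes were lower.

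The 17 lower Pol III genes were 10 to 18 with 1 pool left out and 3 without Dux KO replicates 1 and 2, and the 1 higher gene was 0 to 1 and 0 without either pair. The SINE RNA and chromatin list had 0 to 1 lower and 2 to 4 higher with 1 pool left out, 0 lower without either pair of pools, 2 higher without Dux KO replicates 1 and 2 and 2 higher at a mean of at least 5 FPKM. Over all genes, 10.8% to 17.1% were lower and 9.46% to 15.4% higher with 1 pool left out. Without Dux KO replicates 1 and 2 these shares were 3.56% and 2.83%, and without replicates 3 and 4 they were 16.9% and 14.8%. Names under 65 FPM rest on few reads and could show only large differences.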

Other observations

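Within SINE reads, every group other than B2 had a higher mean share in Dux KO pools, B1 and PB1 and B3 included. MIR and others made up 2.07 to 2.30% of SINE reads in WT and 2.41 to 2.92% in Dux KO, without overlap. B4 and ID made up 12.2% ± 0.811 in WT and 14.4% ± 1.19 in Dux KO (SD, n = 4 each), with overlap in 1 pair of pools, 13.3% in WT replicate 2 and 13.3% in Dux KO replicate 1. These are shares of 1 total, so a lower share of B2 raises the others.

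WT pools kept a common order over most names: WT replicate 2 was the highest WT pool for 25 of 38 SINE names and WT replicate 3 the lowest for 30. In Dux KO, replicate 2 was lowest for 23 names, while replicate 4 was highest for 21 names although it was among the lower pools for B2.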
